A study of Macaca mulatta with 449 samples.

Results

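The glycine receptor and glycine transporter genes were followed across the brain of rhesus macaques (Macaca mulatta). They were chosen by symbol, as the rows of the gene count table for GLRA1, GLRA2, GLRA3, GLRB, SLC6A5 and SLC6A9, which are 6 of 30807 genes. Each symbol matched 1 gene: ENSMMUG00000014704 (GLRA1), ENSMMUG00000003482 (GLRA2), ENSMMUG00000008868 (GLRA3), ENSMMUG00000022901 (GLRB), ENSMMUG00000009053 (SLC6A5) and ENSMMUG00000015158 (SLC6A9). The study dissected brain regions of 8 animals and sequenced their RNA after removal of ribosomal RNA. The RNA-seq samples used here came from 51 sub-regions, with 1 sample of each from every animal. The animals were 4 males (Rhesus 2, 3, 7 and 8) and 4 females (Rhesus 4, 6, 10 and 11). Of these, 4 were young, aged 3.2 to 5 years (Rhesus 4, 7, 8 and 10), and 4 were mid-aged, 9.8 to 10 years (Rhesus 2, 3, 6 and 11).

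Glycine is a fast inhibitory transmitter, best known in the spinal cord and the brainstem. Its receptor is a chloride channel built from alpha subunits, which bind the transmitter, and a beta subunit, which ties the channel to the scaffold protein gephyrin at the synapse. GLRA1, GLRA2 and GLRA3 encode alpha subunits and GLRB encodes the beta subunit. SLC6A5 encodes GlyT2, the transporter that refills the endings of glycine-releasing neurons, and SLC6A9 encodes GlyT1, the transporter known mostly from glia that clears glycine from around synapses. In the forebrain, glycine also acts as a co-agonist of NMDA receptors, and GlyT1 helps to set its level there.

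The 51 sub-regions were placed in 16 region groups: the cerebral cortex (31 sub-regions), hippocampus (HIP), amygdala (AMY), entorhinal and perirhinal cortex (PA), olfactory bulb (OB), striatum (STR), globus pallidus (GP), corpus callosum (CC), thalamus (THA), hypothalamus (HTHA), pituitary (PIT), ventral tegmental area (VTA), substantia nigra (SN), pons (PON), medulla oblongata (MO) and cerebellum (CB). Counts of the sub-regions of a group were added within each animal, so every group had n = 8. Levels are CPM, counts scaled to the same normalised library size, and are compared for 1 gene between regions, not between genes. The samples held between 7784678 and 31083490 counted reads, with a median of 10698602. A difference was called when edgeR's quasi-likelihood test, with the animal as a block, gave a Benjamini-Hochberg adjusted p below 0.05 over all genes and a log2 fold change beyond 1 in size. Tests of whether a gene differed among region groups, lobes or sub-regions used an F test at adjusted p below 0.05, with no fold limit. A gene with 3 or fewer reads in all 8 animals of a group was treated as at the detection floor there.

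The labels were compared with marker lists, each taken as its mean log2(CPM + 1). The neuron list (8 genes) had its highest mean in the pons, the oligodendrocyte list (6 of 8 genes found in the table) in the corpus callosum, the dopamine neuron list (4 of 4) in the substantia nigra, the hypothalamus list (5 of 6) in the hypothalamus and the anterior pituitary list (6 of 8) in the pituitary. A pair of samples stood apart. In the medulla of Rhesus 6 the neuron list stood at 5.68, against 9.10 to 9.85 in the other 7 animals and 5.54 as the mean of the corpus callosum, and its oligodendrocyte list was the highest of the 8, at 11.4 against 10.0 to 10.9. In the hypothalamus of Rhesus 6 the cortical excitatory neuron list stood at 6.04, against 1.31 to 1.96 in the other 7 animals. In tissue samples of this kind, fewer cells of a type and less RNA per cell cannot be told apart.

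The plot of levels by animal gives each member in the 16 groups. Among these groups, SLC6A5 was read mostly in the medulla and cerebellum, and GLRA1 was highest in the medulla and pons, followed by the midbrain groups. GLRA2 was highest in the amygdala and GLRA3 in the entorhinal and perirhinal cortex. GLRB was read in every sample, and SLC6A9 was highest in the corpus callosum. All 6 members differed among the 16 groups, but so did 99.7% of the 16829 genes tested, so that test said little about the members.

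**Figure D1:**
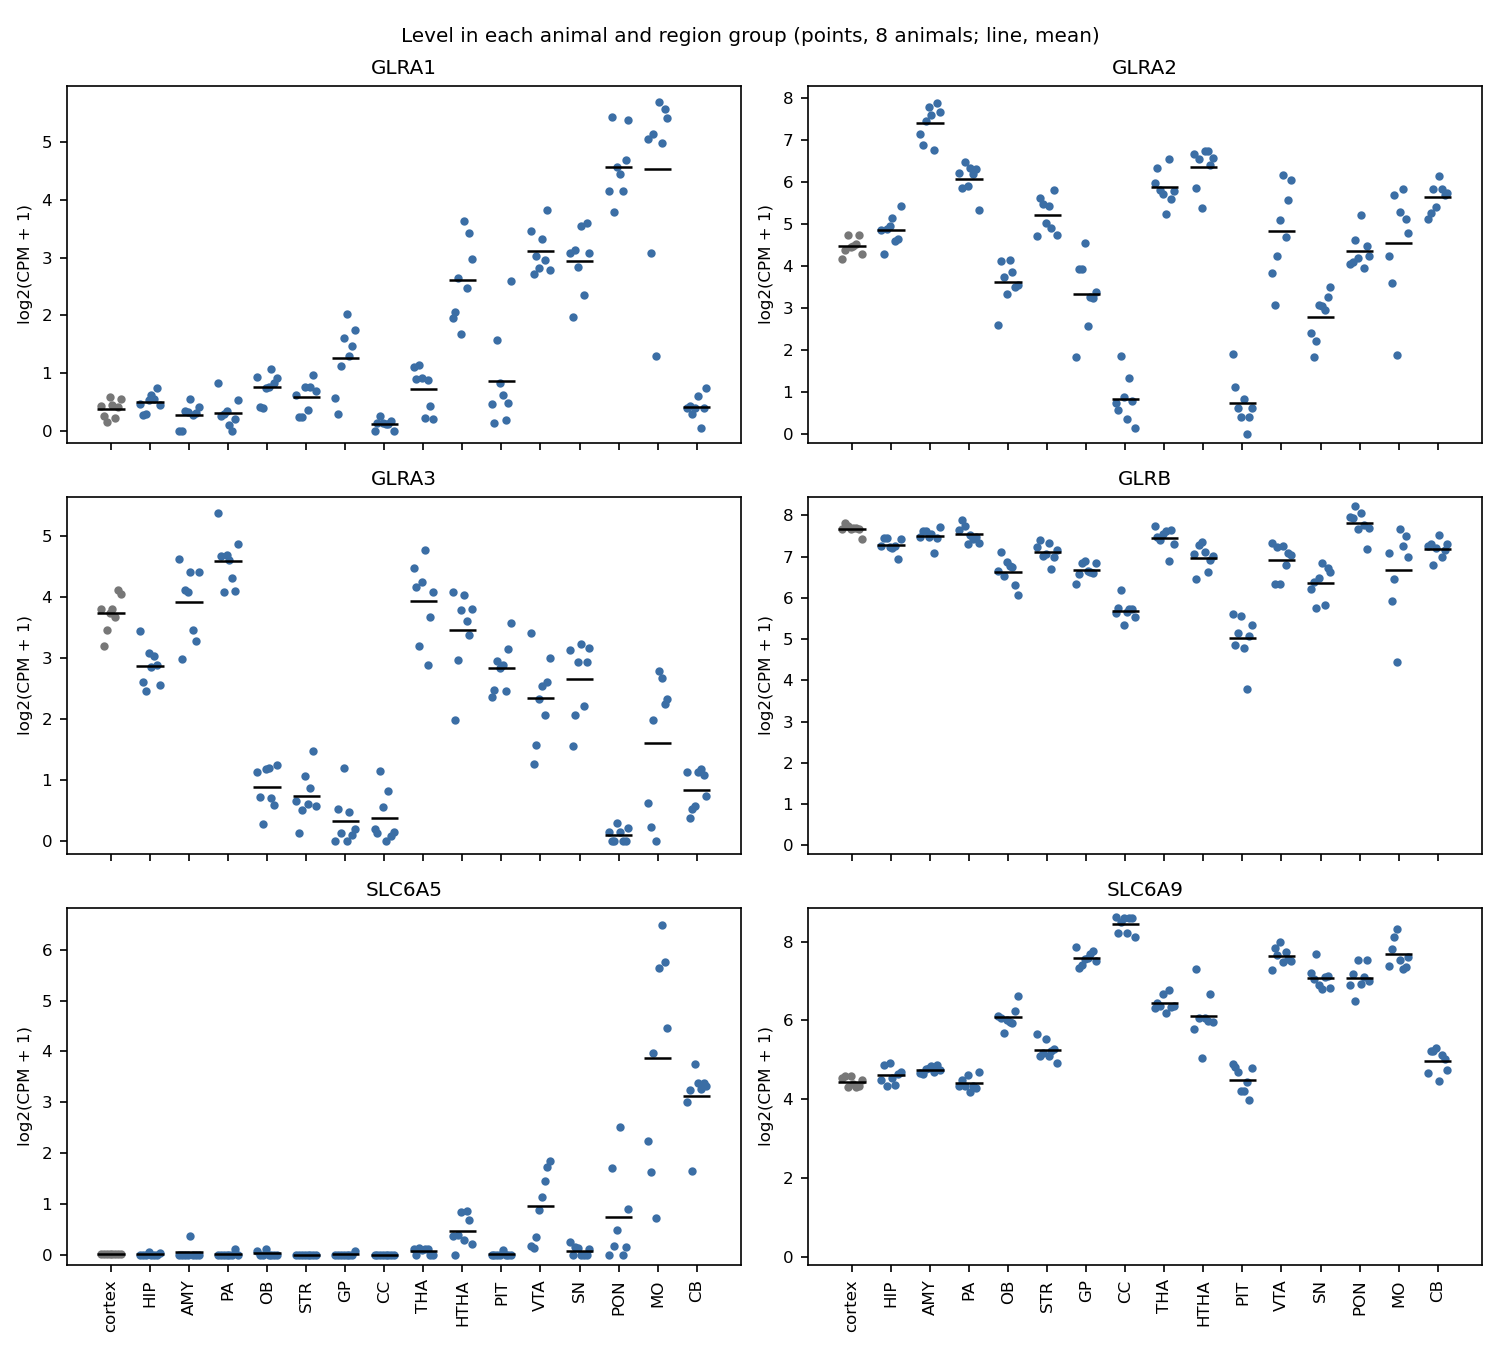
Level of each gene, as log2(CPM + 1), in the 16 region groups; each point is 1 of 8 animals, the line is the mean, and the cortex is in grey. SLC6A5 lies at or near 0 outside MO, CB, VTA, PON and HTHA, and the 8 points of MO are spread from 0.652 to 89.3 CPM.

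Each group was compared with the cortex. Of the 90 pairs of a member and a group, 29 (32.2%) were called higher than the cortex and 18 (20.0%) lower, where over all genes 12.3% of the pairs were higher and 12.2% lower. GLRA1 and SLC6A9 were each higher in 9 of 15 groups, SLC6A5 in 6 and GLRA2 in 5. GLRA3 was lower in 9 groups and GLRB in 5. In 3 of the 47 calls, one of the groups was at the floor. These were GLRA1 in the corpus callosum, GLRA3 in the pons and SLC6A5 in the substantia nigra.

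The members called can be set beside the share of all genes called in the same comparison. In the pons 3 of 6 members were higher (11.6% of all genes) and 1 lower (13.3%). In the medulla 3 were higher (15.8%) and 1 lower (12.5%), and in the cerebellum 2 were higher (10.8%) and 1 lower (14.9%). The midbrain groups had as many higher members, with 3 higher (14.4%) and 3 lower (13.6%) in the substantia nigra and 3 higher (14.8%) and 1 lower (13.6%) in the ventral tegmental area. The hypothalamus had the most, with 4 higher (11.0%) and none lower (7.62%), and the thalamus had 3 higher (9.81%) and none lower (9.92%).

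In the telencephalic groups at most 2 members were higher. In the amygdala 1 was higher (5.03%) and none lower (4.5%), and in the entorhinal and perirhinal cortex 1 was higher (5.51%) and none lower (3.4%). In the hippocampus no member was called by edgeR in either direction (6.05% of all genes higher and 6.31% lower). In the striatum none was higher (8.73%) and 1 lower (8.18%), in the globus pallidus 2 were higher (17%) and 2 lower (17.8%), and in the olfactory bulb 2 were higher (12.5%) and 2 lower (9.94%). The 2 groups lowest on the neuron list had 1 higher (20.2%) and 4 lower (24%) in the corpus callosum and 1 higher (21.4%) and 2 lower (23.3%) in the pituitary. In the 7 cases with no member called in a direction, DESeq2 called 0 as well. At an unadjusted edgeR p below 0.05, 2 members were lower in the hippocampus (GLRA3 and GLRB) and 1 in the hypothalamus (GLRB). In the striatum 2 were higher (GLRA2 and SLC6A9), and the other 4 cases had 0. GLRB in the hippocampus had adjusted p = 0.0572. The others passed after adjustment and missed only the fold limit. Their log2 fold changes were -0.95 for GLRA3 (adjusted p = 0.00564) and -0.68 for GLRB in the hypothalamus (0.000552). In the striatum they were 0.81 for GLRA2 (0.0119) and 0.85 for SLC6A9 (2.72e-07). The share of all genes at the unadjusted limit is not given here.

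**Figure D2:**
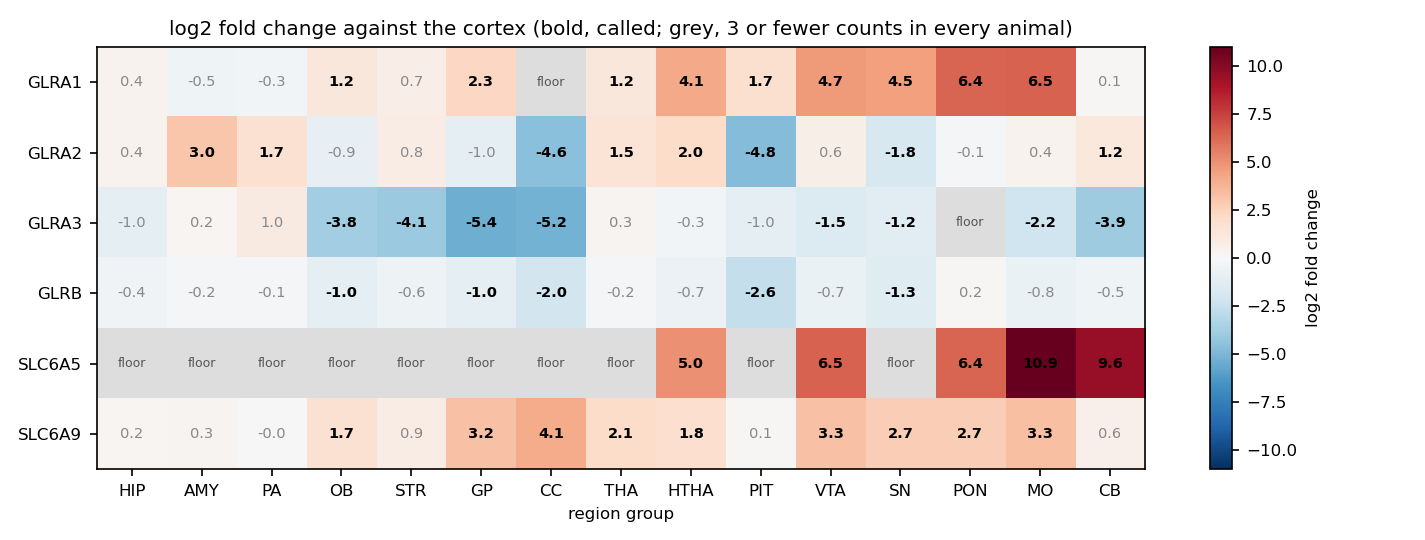
Log2 fold change of each gene in 15 region groups against the cortex; bold values were called and grey cells marked floor held 3 or fewer reads in all 8 animals. GLRA1 and SLC6A9 are mostly red on the right and GLRA3 is mostly blue, with 10.9 for SLC6A5 in MO as the highest value.

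GLRA1, the adult-type alpha subunit of spinal cord and brainstem synapses, was highest in the medulla and the pons. In the medulla its lowest, median and highest levels were 1.47, 32.96 and 50.2 CPM, with a mean of 30.4 ± 17.5 (SD, n = 8). In the pons they were 12.8, 21.7 and 41.8 CPM, with a mean of 24.6 ± 10.9. Every animal was above the whole range of the cortex, which ran from 0.119 to 0.506 CPM with a mean of 0.315 ± 0.140. The log2 fold change was 6.51 (SE 0.39) in the medulla and 6.36 (SE 0.39) in the pons, with adjusted p = 1.19e-29 and 3.38e-29. The 2 regions were not told apart by the test, at a log2 difference of 0.15 (SE 0.32, adjusted p = 0.736).

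Below these came the ventral tegmental area, at 7.93 ± 2.62 CPM, the substantia nigra, at 7.17 ± 2.83, and the hypothalamus, at 5.75 ± 3.34. The 8 animals of each of these groups also lay above the cortex. Without the hypothalamus sample of Rhesus 6, GLRA1 stood at 6.26 ± 3.26 CPM there, GLRA2 at 91.9 ± 17.2, SLC6A5 at 0.341 ± 0.275 and SLC6A9 at 80.98 ± 36.7 (n = 7), and all 4 remained called higher than the cortex. Smaller rises were called in the globus pallidus (log2 fold change 2.31), pituitary (1.72), olfactory bulb (1.21) and thalamus (1.21), where the animals overlapped with the cortex. The pituitary value leaned on Rhesus 11, at 5.01 CPM against 0.0992 to 1.99 in the others. In the corpus callosum GLRA1 was at the floor, with 8 reads in all, so it was at least 1.13-fold lower than the cortex. In the 31 cortical sub-regions GLRA1 was thin, with 881 reads over the samples of all 8 animals.

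GLRA2, the alpha subunit known for its abundance before birth, had its highest level in the amygdala. The amygdala samples ran from 109 to 238 CPM with a median of 185 and a mean of 175 ± 47.7 (n = 8). The cortex sums ran from 17.2 to 25.9 CPM, a range that no amygdala sample reached. The log2 fold change was 3.02 (SE 0.30, adjusted p = 5.87e-15), or 8.10-fold. The hypothalamus followed at 85.6 ± 23.98 CPM, the entorhinal and perirhinal cortex at 68.8 ± 15.8, the thalamus at 60.2 ± 17.99 and the cerebellum at 50.1 ± 11.9. These 4 groups were also called higher than the cortex, and in each of them all 8 animals were higher.

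GLRA2 was close to absent in the corpus callosum, at 0.916 ± 0.819 CPM, and in the pituitary, at 0.815 ± 0.871. Their log2 fold changes against the cortex were -4.57 and -4.77. The neuron list was lowest in the same groups, at 5.54 and 5.59 against 9.94 in the cortex; its part in these results was not tested. The substantia nigra was called lower as well, at 6.40 ± 2.67 CPM (log2 fold change -1.75), and its neuron list stood at 9.22. The pons, at 20.4 ± 7.10 CPM, and the cortex, at 21.5 ± 3.08, were next to each other in the order, with a log2 difference of -0.10 (SE 0.29, adjusted p = 0.776).

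GLRA3, an alpha subunit known from pain circuits of the spinal cord, had its highest levels in forebrain groups, but not in all of them. The striatum, globus pallidus and olfactory bulb stood at 0.732, 0.308 and 0.902 CPM, below the medulla at 2.85. It was highest in the entorhinal and perirhinal cortex, from 15.9 to 40.3 CPM with a median of 24.1. The thalamus followed at 15.6 ± 6.64 CPM, the amygdala at 15.2 ± 6.06 and the cortex at 12.5 ± 2.67. No group was called higher than the cortex by edgeR or by DESeq2, and 1 of 15 was higher at an unadjusted p below 0.05. That group was the entorhinal and perirhinal cortex, at a log2 fold change of 0.96 (SE 0.30, adjusted p = 0.00709), just under the fold limit.

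In the pons GLRA3 was at the floor, with 7 reads over 8 animals, which made it at least 40.6-fold lower than the cortex. It was also called lower in the globus pallidus (log2 fold change -5.38), corpus callosum (-5.17), striatum (-4.12), cerebellum (-3.93), olfactory bulb (-3.82), medulla (-2.17), ventral tegmental area (-1.53) and substantia nigra (-1.18). The neuron list stood at 10.4 in the pons, its highest mean, and at 8.66 in the striatum. The part of this list in the GLRA3 levels was not tested.

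In the pituitary GLRA3 was read at 6.43 ± 2.25 CPM, from 4.13 to 11.0. The log2 fold change against the cortex was -0.95 (SE 0.31, adjusted p = 0.00342), under the fold limit. The pituitary is not brain tissue, and its anterior pituitary list stood at 9.95 against 1.57 in the next group, the amygdala.

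GLRB, the beta subunit, was read throughout. Its lowest level in any cortical sample was 102 CPM and its highest 285, and every sample of the 51 sub-regions held GLRB reads. The pons had the highest mean, at 229 ± 46.4 CPM, ahead of the cortex at 204 ± 15.2, the entorhinal and perirhinal cortex at 187 ± 27.3 and the amygdala at 182 ± 22.6. None of these 3 was told apart from the cortex by the test, with log2 differences between -0.18 and 0.16. No group was called higher, by edgeR or by DESeq2, and 0 of 15 were higher at an unadjusted p below 0.05.

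The pituitary, at 33.6 ± 11.5 CPM, and the corpus callosum, at 51.4 ± 9.32, were the lowest groups for GLRB, with log2 fold changes of -2.62 (SE 0.19) and -1.99 (SE 0.18). The substantia nigra (-1.30), olfactory bulb (-1.02) and globus pallidus, just past the limit of 1, completed the 5 lower calls. The olfactory bulb and globus pallidus lay at the fold limit, and DESeq2 put both just inside it, at -0.99 and -0.98. Across the 51 sub-region means, GLRB ran along with the neuron list (Pearson r = 0.917, Spearman rho = 0.859); the points share libraries and animals, so this is a description.

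SLC6A5, the marker of glycine-releasing neurons, was restricted. The table held 4442 SLC6A5 reads in all, in 84 samples. In the medulla the 8 animals had 0.652, 2.09, 3.72, 14.7, 21.02, 48.6, 53.1 and 89.3 CPM. These values came from Rhesus 6, 3, 2, 4, 11, 7, 10 and 8 in that order, so the SD was larger than the mean. The mean was 29.2 ± 31.7 CPM. The cerebellum was steadier, from 2.12 to 12.5 CPM with a mean of 8.30 ± 2.94.

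The 31 cortical sub-regions of 8 animals held 22 SLC6A5 reads in all, never more than 1 in a sample. Against that level the log2 fold change was 10.93 (SE 0.58, adjusted p = 1.28e-31) in the medulla and 9.57 (SE 0.56, adjusted p = 2.37e-29) in the cerebellum, and all 8 animals were higher in both. With so few cortical reads, the sizes of these folds are loose. SLC6A5 was also called higher than the cortex in the ventral tegmental area (1.14 ± 0.981 CPM), the pons (1.06 ± 1.67) and the hypothalamus (0.398 ± 0.302).

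In the pons, 42 of the SLC6A5 reads came from Rhesus 7 and 23 from Rhesus 3, while Rhesus 2 and 8 had none. The pons was higher than the cortex in 6 of 8 animals. In the substantia nigra the call rested on 6 reads, and this group is at the floor. The striatum and the corpus callosum held 0 reads in all 8 animals, which allows up to 0.1001 and 0.278 CPM per animal on average for 3 reads. The floors given here cover counting error only.

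SLC6A9, the glial glycine transporter, had its highest level in the corpus callosum, the large fibre tract between the hemispheres. The 8 animals ran from 276 to 393 CPM with a median of 375 and a mean of 348 ± 50.01. All were above the highest cortex sum, 23.1 CPM. The log2 fold change was 4.07 (SE 0.16, adjusted p = 4.90e-45), or 16.8-fold. The medulla followed at 211 ± 58.7 CPM, the ventral tegmental area at 199 ± 31.3, the globus pallidus at 192 ± 24.5, the pons at 138 ± 32.6 and the substantia nigra at 137 ± 30.7.

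The thalamus, hypothalamus and olfactory bulb were also called higher, at 86.3 ± 12.4, 74.8 ± 38.2 and 67.7 ± 13.7 CPM. At the other end, the entorhinal and perirhinal cortex (20.4 ± 2.53 CPM), the cortex (20.8 ± 1.81) and the pituitary (22.2 ± 5.33) lay close together. No group was called lower, by edgeR or by DESeq2, and 0 of 15 were lower at an unadjusted p below 0.05.

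Across the 51 sub-region means, SLC6A9 ran along with the oligodendrocyte list (r = 0.847, rho = 0.834) more closely than with the astrocyte list (r = 0.121, rho = 0.0358). Of single oligodendrocyte markers, CNP gave r = 0.914 and MOBP 0.886. Of single astrocyte markers, GFAP gave 0.676 and SLC1A2, a glutamate transporter, -0.496. The list was highest in the corpus callosum, at 11.97 against 6.88 in the cortex; its part in the SLC6A9 levels was not tested. These correlations share libraries and have no test.

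In the order of mean levels, few neighbours could be told apart. An exact two-sided sign-flip test over the 8 animals cannot go below p = 0.00781. Over a member's 15 neighbouring pairs, a single pair at that value does not by itself give an adjusted p under 0.05. Only SLC6A9 had pairs under 0.05 after adjustment, 4 of 15, each higher in 8 of 8 animals (adjusted p = 0.0293). They were the corpus callosum over the medulla, the globus pallidus over the pons, the substantia nigra over the thalamus and the olfactory bulb over the striatum. For the other 5 members none of 15 pairs passed, among them the medulla over the pons for GLRA1 and the amygdala over the hypothalamus for GLRA2, which was higher in 8 of 8 animals (exact p = 0.00781, adjusted 0.0586). Over the 6 members, 17 of 90 pairs had an unadjusted p below 0.05. The order was set on the same values, so these tests are descriptive.

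The medulla and the pons, both hindbrain regions, were compared directly. Of the 6 members, 2 were called higher in the medulla and none lower, where over all genes 8.2% were higher and 3.45% lower. The called genes were SLC6A5, with a log2 difference of 4.54 (SE 0.49, adjusted p = 3.42e-13), and GLRA3, which was at least 9.22-fold higher because the pons was at the floor. Each was higher in the medulla in 7 of 8 animals. For SLC6A5 the exception was Rhesus 3, with 2.09 CPM in the medulla and 2.24 in the pons. For GLRA3 it was Rhesus 6, with 0 reads in the medulla.

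GLRB was 0.93 lower in the medulla on the log2 scale and SLC6A9 0.61 higher, both with adjusted p below 0.05, as had 44.3% of all genes, but inside the fold limit. Without the medulla of Rhesus 6, a sample chosen after its values were seen, the SLC6A5 difference was 4.82 and the GLRA3 difference 5.199. Without those of Rhesus 3 and 6 they were 5.15 and 5.37. The log2 difference of GLRA1 moved from 0.15 to 0.36 and 0.54 (adjusted p = 0.367 and 0.173), and that of GLRA2 from 0.51 to 0.69 and 0.83 (adjusted p = 0.0461 and 0.0196).

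The medulla of Rhesus 6 was the lowest of 8 for GLRA1 (1.47 CPM), GLRA2 (2.69), GLRA3 (0), GLRB (20.7) and SLC6A5 (0.652) and the highest for SLC6A9 (318). HOXA4, a gene of the hindbrain and the only one of 11 listed HOX genes found in the table, was read there as well, from 7.74 to 20.1 CPM over the 8 medulla samples with Rhesus 6 as the lowest, while the cortex held at most 1 HOXA4 read per animal. Without Rhesus 6 the medulla means were 34.5 ± 14.1 CPM for GLRA1 (n = 7), 33.2 ± 31.9 for SLC6A5 and 195 ± 42.8 for SLC6A9. All 4 calls of the medulla against the cortex remained without Rhesus 6 and without Rhesus 3 and 6. They were GLRA1, SLC6A5 and SLC6A9 higher and GLRA3 lower.

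**Figure D3:**
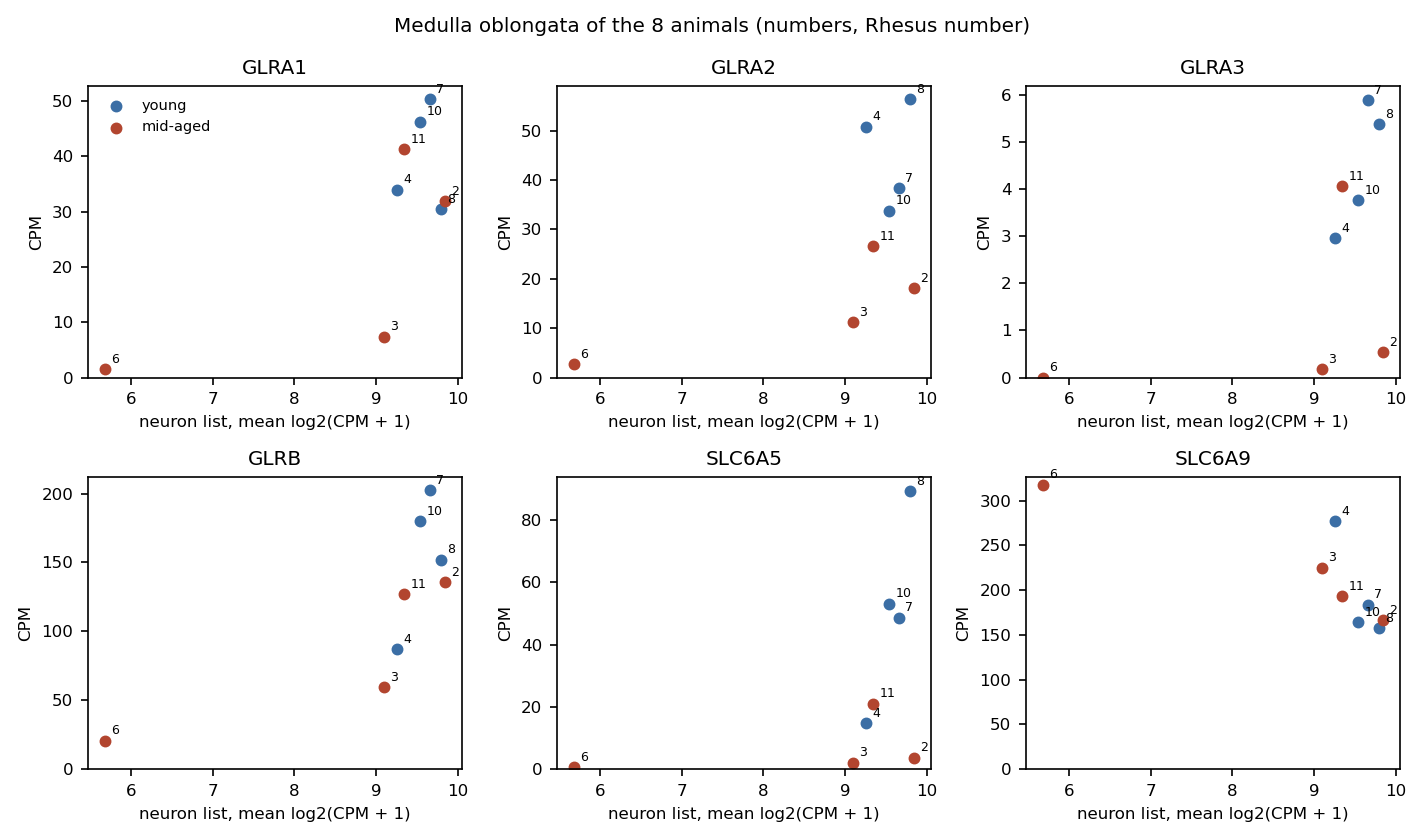
Level of each gene in CPM in the medulla of each animal against the mean log2(CPM + 1) of the neuron list; each point is 1 animal, numbered by its Rhesus number and coloured by age stage. Rhesus 6 lies apart at 5.68 on the list, and Rhesus 2 has 9.85 on the list but 3.72 CPM of SLC6A5.

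The alpha subunits changed places between regions. Each one's share of the reads of GLRA1, GLRA2 and GLRA3 was taken within each animal. The 3 shares add up to the whole, so a share can fall while the gene's own level does not, and the tests of the 3 genes are linked. GLRA4, another alpha subunit gene, is not in this sum; it was read at 1.54 ± 0.358 CPM in the cortex and was highest in the striatum (5.50 ± 1.89) and corpus callosum (5.34 ± 1.23). Gene lengths were not known, so a share is not a share of molecules, and only changes between regions are read. In the cortex the shares were 0.922% ± 0.409 GLRA1, 62.7% ± 6.22 GLRA2 and 36.4% ± 5.91 GLRA3 (n = 8). In the pons GLRA1 took 53.4% ± 13.3, in the medulla 46.9% ± 11.6, in the substantia nigra 37.4% ± 8.34 and in the ventral tegmental area 20.8% ± 10.4. All 8 animals were above their own cortex in each of these groups.

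GLRA2 took nearly all of the reads of these 3 genes in the cerebellum (97.6% ± 0.906), the striatum (96.6% ± 1.83) and the amygdala (91.7% ± 3.15). GLRA3 took the most in the pituitary, at 78.7% ± 13.2, with 8 of 8 animals above the cortex. The level of GLRA3 itself was lower there, at 6.43 CPM against 12.5 in the cortex. The pituitary was the only one of 15 groups in which its share rose past the test, while it fell past the test in 13. These falls include the entorhinal and perirhinal cortex, the amygdala and the thalamus, where the mean level of GLRA3 was above that of the cortex. Over the 45 linked tests of a share, 38 passed (exact two-sided sign-flip test, adjusted p below 0.05, smallest possible p 0.00781 before adjustment). In the corpus callosum the shares rested on 2 to 40 reads per animal, in the globus pallidus on 25 to 280 and in the pituitary on 59 to 155. They are rough there. Sums were also low in the substantia nigra (69 to 323) and olfactory bulb (120 to 245), and the lowest in the medulla was 51. With GLRA4 added to the sum, an alternative chosen after seeing the data, 37 of the 45 tests passed, but not all the same ones. The rises of GLRA2 in the globus pallidus and olfactory bulb and of GLRA1 in the corpus callosum no longer passed. In the corpus callosum the GLRA2 and GLRA3 shares now passed as falls. The GLRA2 difference there was -47.2 points, against 5.52 without GLRA4. The GLRA2 share was then 84.4% ± 4.85 in the striatum and 96.8% ± 0.992 in the cerebellum, the GLRA3 share was 68.8% ± 10.8 in the pituitary, and GLRA4 itself took 80.8% ± 16.4 in the corpus callosum.

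**Figure D4:**
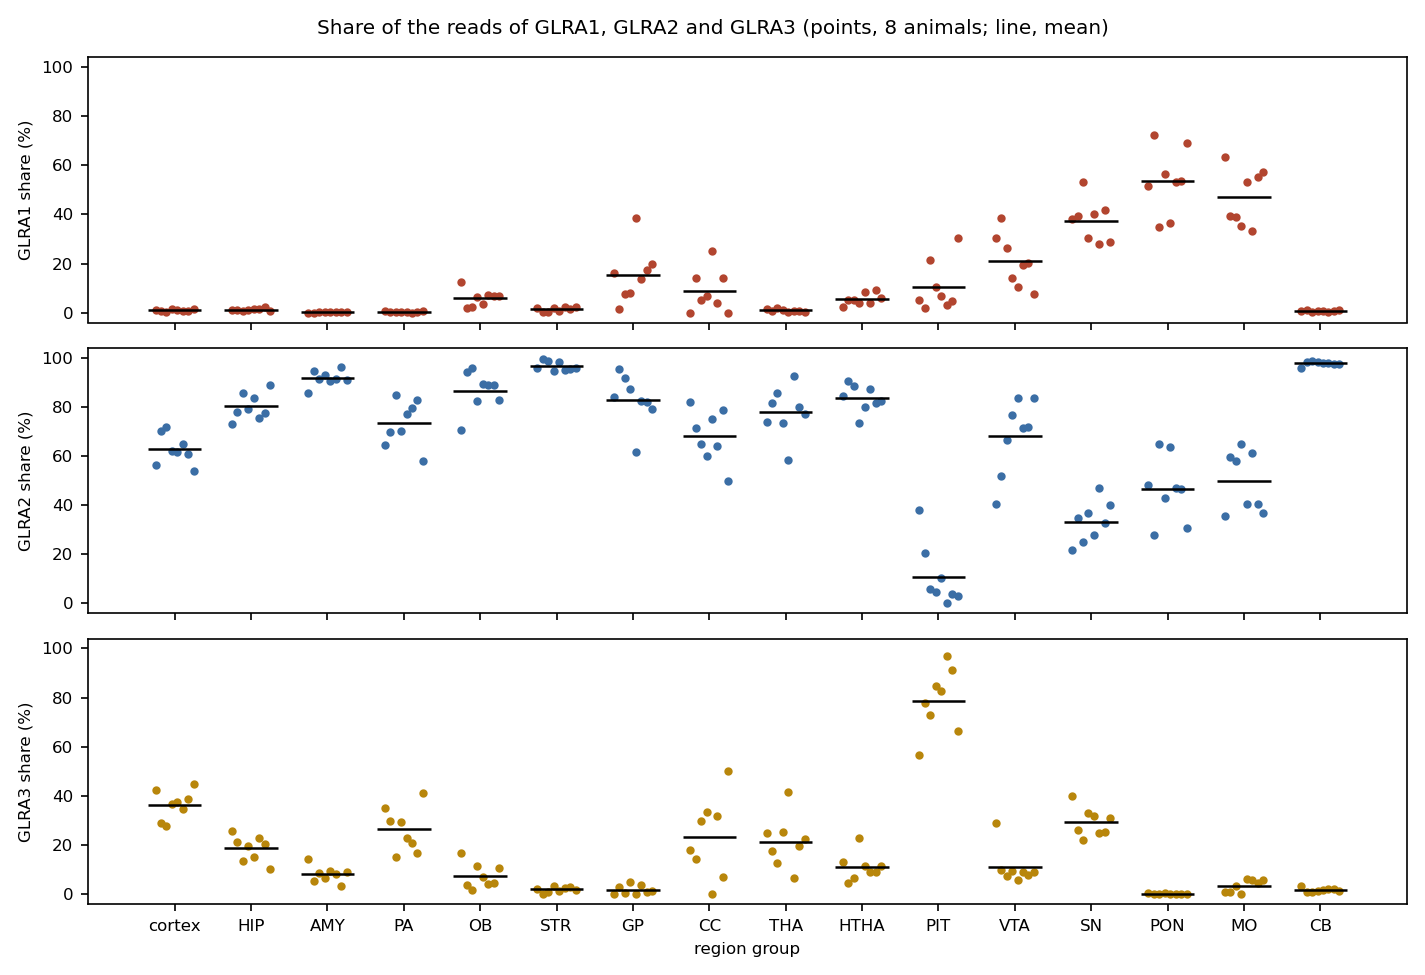
Share of GLRA1 (top), GLRA2 (middle) and GLRA3 (bottom) in the reads of the 3 genes, in percent, for the 16 region groups; points are 8 animals and lines are means. GLRA1 rises to 53.4% in PON and GLRA3 to 78.7% in PIT.

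Within the cortex, mean GLRA2 and GLRA3 levels were higher in the temporal, frontal and limbic lobes than in the parietal and occipital lobes. A trend with position was not tested. All 5 members tested differed among the 31 sub-regions, but so did 75.0% of all genes. The sub-region accounted for 88.6% of the variation of log2(CPM + 1) for GLRA2 and 80.6% for GLRA3, with 3.87% and 4.95% for the animal. For GLRB the sub-region accounted for 22.03%, for SLC6A9 28.5% and for GLRA1 14.9%. SLC6A5 was too rare in the cortex to be tested.

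GLRA2 was highest in the temporal polar gyrus (TPG), at 79.5 ± 8.02 CPM, from 68.7 to 90.7. The insula (INS) followed at 55.8 ± 14.3 and the anterior cingular gyrus (ACG) at 49.1 ± 11.8. It was lowest in the inferior occipital gyrus (IOG), at 7.79 ± 1.36, from 5.93 to 9.62, so these ends of the order did not overlap. GLRA3 was highest in the ventromedial prefrontal cortex (vmPFC), at 32.6 ± 7.69 CPM, and the temporal polar gyrus, at 31.4 ± 5.73, and lowest in the inferior occipital gyrus, at 1.70 ± 0.962. Over the 31 cortical means the 2 genes ran together (r = 0.904, rho = 0.950).

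Between 5 lobes, 2 of the 5 members tested differed, GLRA2 and GLRA3, where 61.5% of all genes did. In the occipital lobe both were called lower, where 4.0% of all genes were. GLRA2 was 1.45 lower there than the mean of the other lobes on the log2 scale (SE 0.08, adjusted p = 8.82e-18), at 8.24 ± 1.23 CPM. GLRA3 was 2.56 lower there (SE 0.14, adjusted p = 6.11e-17), at 2.08 ± 0.758 CPM. The occipital lobe was the lowest lobe for both genes in 8 of 8 animals. The temporal lobe was called higher for both, by 1.03 and 1.05, where 0.572% of all genes were higher. Without Rhesus 6 the GLRA2 difference was 0.99, under the fold limit. The frontal lobe was called higher for GLRA3 alone of the 2, by 1.44, where 1.28% of all genes were, and its log2 difference for GLRA2 was 0.54. GLRB and GLRA1 had adjusted p = 0.0643 and 0.0733 among lobes, and without Rhesus 11 both passed, at 0.0339 and 0.0297.

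**Figure D5:**
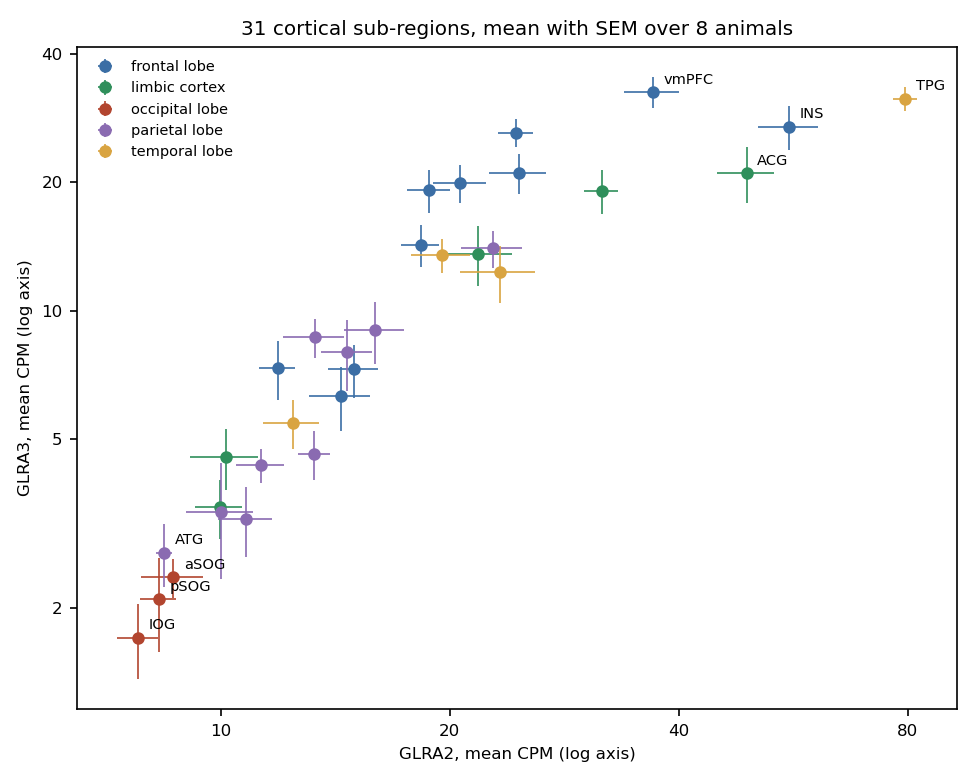
Mean level of GLRA3 against that of GLRA2 in the 31 cortical sub-regions, in CPM on log axes; bars are the SEM over 8 animals and colours are lobes. The 3 occipital sub-regions lie at the lower left and TPG, INS, ACG and vmPFC at the upper right.

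In the striatum, 2 of the 3 members tested differed among the accumbens nucleus (ACb), caudate nucleus (CN) and putamen (PUT), where 57.0% of all genes did. GLRA2 ran from 31.3 to 109 CPM in the accumbens, from 16.5 to 56.5 in the caudate and from 2.80 to 28.8 in the putamen. The putamen was the lowest in 8 of 8 animals, with log2 differences of 2.94 (SE 0.35, adjusted p = 9.41e-07) for the accumbens and 2.53 (SE 0.34, adjusted p = 1.39e-05) for the caudate against it, where 5.15% and 3.26% of all genes were higher. SLC6A9 went the other way, at 50.7 ± 13.9 CPM in the putamen, 32.1 ± 7.27 in the caudate and 29.7 ± 4.76 in the accumbens. The putamen was the higher in 7 of 8 animals against the accumbens and in 8 of 8 against the caudate. The log2 differences against the putamen, -0.73 for the accumbens and -0.66 for the caudate, were inside the fold limit. GLRB did not pass (adjusted p = 0.174), and GLRA1, GLRA3 and SLC6A5 were too low to be tested.

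In the hippocampus, GLRA3 and SLC6A9 differed among CA1, CA3 and the dentate gyrus (DG), so 2 of 4 members where 32.7% of all genes did. GLRA3 was higher in the dentate gyrus, at 8.47 ± 2.39 CPM against 5.23 ± 2.21 in CA1, where 8 of 8 animals were lower, and 5.13 ± 2.55 in CA3, where 7 of 8 were lower. SLC6A9 was lower in the dentate gyrus, at 15.1 ± 2.21 CPM against 26.7 ± 8.29 in CA1 and 27.8 ± 7.50 in CA3, in 8 of 8 animals against both. The dentate gyrus was the lowest of all 51 sub-regions for SLC6A9. Against the dentate gyrus, the log2 differences of CA1 and CA3 were -0.73 and -0.77 for GLRA3 and 0.80 and 0.86 for SLC6A9. These were inside the fold limit. The GLRA3 difference was not past the threshold without the animal block (adjusted p = 0.0904), without Rhesus 6 (0.0674) or without Rhesus 7 (0.0668).

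In the cerebellum, none of the 4 members tested differed between cerebellar cortex and vermis by edgeR or DESeq2, where 0.842% of all genes did. At an unadjusted p below 0.05 there was 1, SLC6A9, at 34.1 ± 10.5 CPM in the cortex and 24.4 ± 5.15 in the vermis (adjusted p = 0.248). SLC6A5 had 8.03 ± 3.34 CPM in the cerebellar cortex and 7.87 ± 2.52 in the vermis. Its log2 difference was -0.06 (SE 0.22).

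Age and sex were tested within each region group, with adjusted p below 0.1 and the same fold limit. Of 72 pairs of a member and a group tested, none was called for age and none for sex by edgeR or DESeq2, where 0.0164% and 0.105% of all gene and group pairs were. At an unadjusted edgeR p below 0.05 there were 10 pairs for age and 2 for sex. The share of all genes at that limit is not given here, so these counts cannot be set against other genes. The lowest p of the 72 age pairs was that of GLRA3 in the entorhinal and perirhinal cortex. It had 29.5 ± 7.39 CPM in the 4 mid-aged and 18.6 ± 3.50 in the 4 young animals (log2 difference 0.67, SE 0.17, edgeR adjusted p = 0.241). The age groups did not overlap in 5 of the 72 pairs, this one included. The share of all genes without overlap is not given here.

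In the medulla GLRA2 had 14.6 ± 10.1 CPM in the mid-aged and 44.8 ± 10.5 in the young animals, with no overlap. Its log2 difference was -1.62 (SE 0.56) and its edgeR adjusted p 0.453. SLC6A5 had 6.87 ± 9.51 CPM in the mid-aged and 51.4 ± 30.5 in the young animals, with overlap, and a log2 difference of -3.05 (SE 1.03, edgeR adjusted p = 0.447). The samples of Rhesus 3 and 6, both mid-aged, were the lowest on the neuron list there; its part was not tested, and without them the differences were -1.02 and -2.02 (edgeR adjusted p = 0.543 and 0.679). Without Rhesus 11 in place of these, SLC6A5 and GLRA3 were called for age in the medulla, at -4.93 (edgeR adjusted p = 0.0543) and -4.55 (0.0935). Without Rhesus 7, GLRA3 was called in the thalamus, at 1.09 (edgeR adjusted p = 0.0330). The shares of all genes called with an animal left out are not given here, so these calls cannot be set against other genes.

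The size of an age or sex difference was not found to vary between region groups for any of the 6 members by edgeR's test of the interaction, where 1.65% of all genes passed for age and 0.689% for sex. At an unadjusted p below 0.05 there were 3 members for age (GLRA1, GLRA3 and SLC6A5) and 0 for sex. DESeq2 passed 1 member for age, GLRA3 (adjusted p = 0.0230), and 0 for sex. The shares of all genes at the unadjusted limit and by DESeq2 are not given here, so these counts cannot be set against other genes.

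Other genes of glycine signalling were taken from a list of 22, of which 20 were found and tested. In the medulla against the cortex 3 were higher and 4 lower, beside 15.8% and 12.5% of all genes. The median log2 fold change of the 20 was -0.18 in the medulla and -0.47 in the pons, beside 0.0033 and -0.03 over all genes tested. The higher genes were PHGDH (log2 fold change 1.64) and PSAT1 (1.36), enzymes of serine synthesis upstream of glycine, and GRIN3B (2.13), a glycine-binding NMDA receptor subunit read at 2.90 ± 1.41 CPM. Among the lower genes were GAD1 (-2.31) and GAD2 (-1.43), which make GABA, and GRIN1 (-1.59), the obligate NMDA receptor subunit.

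In the cerebellum against the cortex 1 was higher and 3 lower, beside 10.8% and 14.9% of all genes. In the medulla against the pons 5 were called higher and none lower by edgeR or DESeq2, beside 8.2% and 3.45% of all genes. At an unadjusted p below 0.05, 5 were lower. Of these, GRIN3A (log2 difference -0.54), DLD (-0.40), SHMT2 (-0.40) and GLDC (-0.37) also had an edgeR adjusted p below 0.05, inside the fold limit. In the pons against the cortex, 4 of the 20 were lower: SLC32A1 (-5.01), the vesicular transporter that loads GABA and glycine, GAD2 (-4.71), GAD1 (-4.42) and GRIN1 (-1.29). None was called higher by edgeR or DESeq2. At an unadjusted p below 0.05, 6 were higher: PHGDH, PSAT1, SLC38A5, GCSH, DLD and SHMT2. All 6 also had an edgeR adjusted p below 0.05. Their log2 fold changes, from 0.27 (SHMT2) to 0.96 (PHGDH), were under the fold limit. The shares of all genes at the unadjusted limit are not given here. The counts called can be read against 11.6% of all genes higher and 13.3% lower in the pons. There 3 of the 6 members were higher (GLRA1, SLC6A5 and SLC6A9) and 1 lower (GLRA3). SLC32A1 stood at 2.10 ± 0.761 CPM in the pons and 59.3 ± 53.0 in the medulla, a log2 difference of 4.79 (adjusted p = 3.65e-21) that was chosen after its value was seen and runs in the same direction as that of SLC6A5. GPHN, which encodes gephyrin and was likewise picked later, stood at 58.2 CPM in both, with SDs of 12.2 in the medulla and 7.15 in the pons.

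Genes with the most similar pattern over the 51 sub-region means were listed from 13340 genes with a symbol. For SLC6A5 they were PAX3 (r = 0.920), SKOR2 (0.912) and TFAP2A (0.880). For GLRA1 they included SH2D2A (0.897) and ITIH1 (0.893). For these 5 genes the rank correlations were lower, between 0.1101 and 0.434, since most sub-regions lay near 0. For SLC6A9 the list was PLEKHB1 (0.981), CYP21A2 (0.980) and COL9A3 (0.979), for GLRB NR1I3 (0.942), TOMM40L (0.941) and SLC16A14 (0.935), for GLRA3 XKR4 (0.858), VEZT (0.847) and MYDGF (0.844), and for GLRA2 ADGRL3 (0.773), AP3M2 (0.768) and RGS17 (0.764). No member was among the 10 genes most like another member. Among the members themselves, the highest value was 0.705, for GLRA1 and SLC6A9.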

How the data were processed

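RNA-seq was made from ribosomal RNA-depleted libraries of 51 sub-regions in 8 macaques. Per the labels and the study's methods, the authors trimmed only samples of poor read quality, with Trim Galore (version 0.4.4). Reads were aligned with HISAT2 (version 2.0.5) and counted per gene with HTSeq (version 0.6.1). The deposited values are raw counts; reads shared by similar genes may be split or dropped by such counting, and the strand setting was not checked here. Symbols came from a gene name table by Ensembl ID; 17572 of 30807 genes had one. Chromatin accessibility samples (33) and midbrain samples (8) were not analysed here.

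Counts were summed by region group within each animal, filtered with filterByExpr and tested with edgeR (version 4.0.16) after TMM scaling, with the animal as a block; age and sex were tested without it, each adjusted for the other. DESeq2 (version 1.42.0) was an alternative, as were other scalings, filters and samples. Shares and neighbouring levels were compared by exact sign-flip tests. Scripts were tested on simulated data. The block follows from the labels, since each number is 1 animal; deviations of same-numbered samples correlated at 0.389 on average and at 0.137 at least, over 120 pairs of groups. No 2 columns were identical. The members, lists and tests were chosen with earlier results of these data known. All 6 members were named throughout, with the 3 most similar genes of each and the list genes with the largest called changes, up to 4 per direction; 2 of these genes are not reported here. Samples of 1 group came from different animals. Depth limits the genes with few reads, given beside their values.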

Additional observations from a re-analysis of the deposited data

Results flagged for a closer look

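In 84 sets of 8 animals, 1 for each member and region group above the floor, the highest or lowest animal was compared with the rest by Dixon's ratio. In 8 sets 1 animal stood far from the others, and about 1 set in 20 would by chance. GLRA1 in the pituitary was 5.01 CPM in Rhesus 11, against 0.0992 to 1.99 in the others. GLRA2 was 2.79 CPM in the pituitary of Rhesus 2, against 0 to 1.19, and 36.3 CPM in the pons of Rhesus 7, against 14.7 to 23.6. GLRA3 in the globus pallidus was 1.29 CPM in Rhesus 6, against 0 to 0.442. GLRB was 71.6 CPM in the corpus callosum of Rhesus 4, against 39.3 to 53.2, and 171 CPM in the cortex of Rhesus 11, below 203 to 225 in the others. SLC6A5 in the pons was 4.73 CPM in Rhesus 7, against 0 to 2.24. SLC6A9 in the substantia nigra was 206 CPM in Rhesus 4, against 110 to 147. The medulla of Rhesus 6 did not stand far enough from the other 7 animals to be listed for any member.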

How the results depend on the processing

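Of the 49 called pairs of a member and a group, the pair of the medulla and pons included, 43 kept their call in every alternative that kept the fold limit of 1, and none reversed. The 6 others were GLRA1 in the corpus callosum, olfactory bulb and thalamus, GLRB in the globus pallidus and olfactory bulb, and SLC6A5 in the substantia nigra. With a log2 fold change limit of 2, 10 pairs were lower than the cortex in place of 18 and 20 were higher in place of 29. Without the animal block, 1 member differed among hippocampal sub-regions in place of 2; the block changed no other count by more than 1.5 times. With 1 animal left out, the number of members differing was 1 to 3 in the hippocampus, 0 to 1 in the cerebellum (1 without Rhesus 4, SLC6A9) and 2 to 4 among lobes (4 without Rhesus 11), and the pairs called for age were 0 to 2. DESeq2 in place of edgeR gave 1 member in place of 0 for age by region group. In these cases the cause was not tested. Leaving out the hypothalamus of Rhesus 6 moved no count of members or pairs beyond 1.5 times. Shares could not be computed per gene length. Depth limits SLC6A5 and GLRA1 in the cortex and GLRA3 in the pons.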
